A study of Danio rerio with 9 samples.

Results

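The lens crystallin genes are the annotated zebrafish genes whose symbols start with crya, cryb or cryg, leaving out the crybg genes, which code for other proteins with beta and gamma domains. The cryptochromes, which share only the first letters, are not among them. Of 48 rows with such a symbol, 26 held at least 10 counts summed over the 9 libraries and were taken as members, out of 32312 genes in all. They comprised 2 alpha, 10 beta and 14 gamma crystallins. Another 7 rows held no count and 15 held between 1 and 9 counts. A row named CRYGB in capitals, also without a count, is not among the 48. The row nearest below the minimum was crygm3 with 9 counts, and the lowest member was cryabb with 10.

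Crystallins are the main soluble proteins of the vertebrate lens. They are made in lens fibre cells, which fill with protein and later lose their organelles, so that the lens becomes clear and refracts light. The alpha crystallins are small heat shock proteins that keep other proteins from aggregating. Beta and gamma crystallins are structural proteins built of the same folded domains, and the beta chains assemble into oligomers while the gamma chains stay single. Fish carry a large class of gamma M crystallins, rich in methionine, that pack very densely in the hard spherical lens used under water. On the first day of zebrafish life the lens is a small solid mass whose central cells turn into the primary fibres.

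The RNA came from whole wild type embryos (TU strain) lysed 24 hours post fertilisation (hpf), and its poly(A) fraction was sequenced. Exposed embryos had received methanolic coal extract at 100 mg/L, dissolved in dimethyl sulfoxide (DMSO), at 4 hpf, and were sorted by malformation before RNA was prepared from 50 embryos per group. P1 had deformed tails (n = 3 libraries), P2 deformed yolks (n = 2), and P3 were small embryos with extruded yolks (n = 3). Embryos of normal appearance were pooled into a single control library (n = 1). Whether the control was kept in DMSO is not stated in the labels. Each phenotype group was defined by its appearance after exposure, so that exposure and malformation cannot be told apart in a comparison with the control, and exposed embryos of normal appearance were not analysed here.

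Library totals ran from 12008832 counts in the control to 20810487. A floor of 3 counts corresponded to 0.250 CPM (the count scaled to library size) in the control and to 0.147 to 0.203 CPM in the exposed libraries, which covers counting error only. Replicates of a group differed by more than sampling noise, with a chi-square per degree of freedom over genes of 1.63 to 3.40 for pairs without P3 replicate 0 and 6.40 and 6.75 for its pairs. P3 replicate 0 also held a summed level of 12073.8 CPM over a list of skeletal muscle genes, against 15135.7 and 16374.6 CPM in the other P3 libraries. Results that rest on P3 are therefore given with and without it where it mattered. Levels below are CPM scaled with TMM factors, and changes are log2 fold changes from edgeR's quasi-likelihood test over all 19835 tested genes, with Benjamini-Hochberg adjustment and a threshold of 0.05. Nothing in the labels says that replicates came from separate clutches, so these p-values measure the spread between these libraries, which may be technical. For the control they assume the spread seen among the exposed libraries.

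Compared per length, the crystallins of the control embryos were led by beta chains. The deposited FPKM of crybb1, a basic beta chain, was 130, followed by cryba4, an acidic beta chain, at 112. The basic chains crybb1l2 and crybb1l1 came next with FPKM of 88.1 and 76.6, and the acidic chains cryba1l, cryba1b and cryba2a followed with 69.4, 60.6 and 48.3. The first gamma gene in this order was crygn2, a gamma N crystallin of a class that stands between the beta and gamma families, with an FPKM of 46.3. All other gamma genes stood below cryba2b at 26.3, led by the gamma M genes crygm2d13 and crygm2d8 at 18.3 and 14.9. The alpha genes were near the bottom, with cryaa at 0.646 and cryabb last at 0.0764. In exposed embryos crybb1 also stood above cryba4 in every P1 and P3 library, while in P2 crybb1 had an FPKM of 19.0 and 20.6 against 19.99 and 17.8 for cryba4.

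Summed CPM of the 10 beta genes was 595 in the control, 177 ± 11.1 in P1 (SD, n = 3), 88.5 ± 2.53 in P2 (SD, n = 2) and 109 ± 22.3 in P3 (SD, n = 3). Each exposed library lay below the control, and the group means were 29.7%, 14.9% and 18.4% of the control value in P1, P2 and P3. The 14 gamma genes summed to 104 CPM in the control, 25.2 ± 2.57 in P1 (SD, n = 3), 11.6 ± 0.849 in P2 (SD, n = 2) and 17.1 ± 3.93 in P3 (SD, n = 3). The alpha sum was 1.08 CPM in the control and between 0.197 and 0.374 CPM in every exposed library, which is close to the floor. In RNA of whole embryos, fewer lens cells and less crystallin RNA per cell cannot be told apart.

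**Figure D1:**
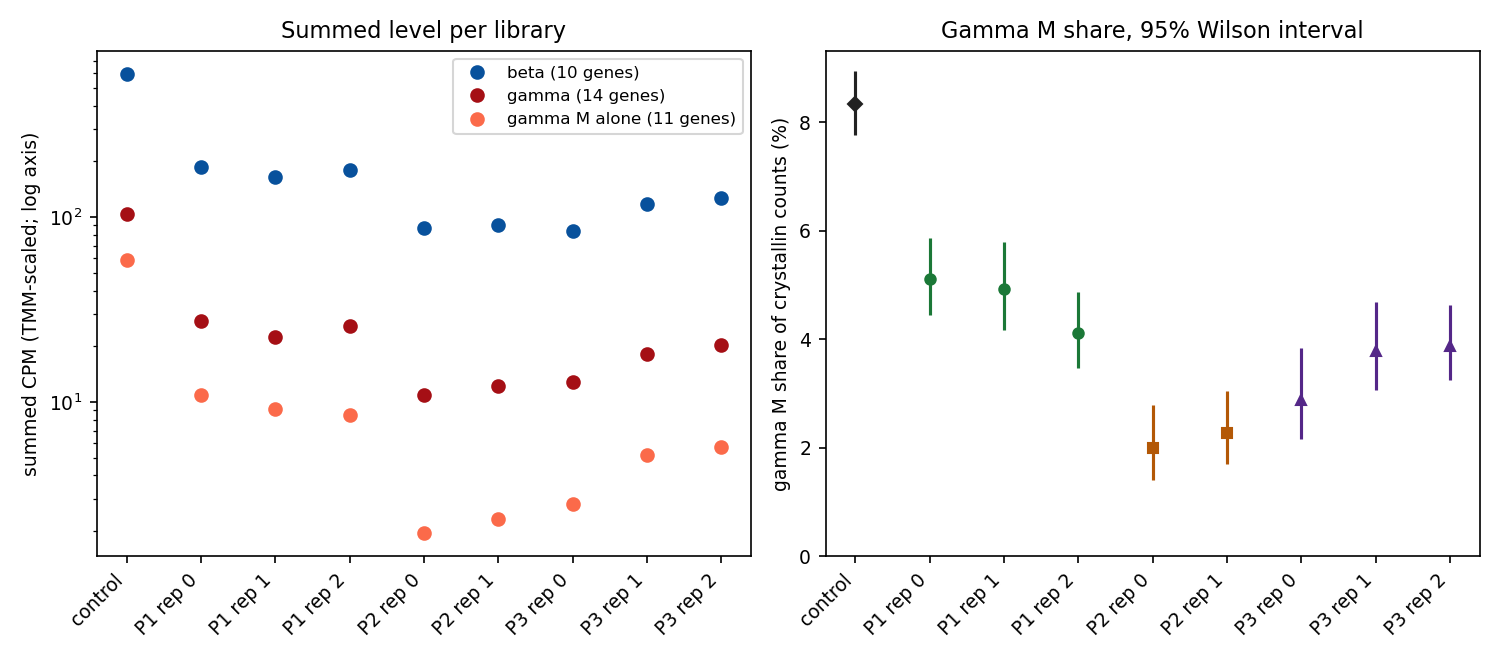
Left, summed TMM-scaled CPM (log axis) of the beta genes, the gamma genes and the gamma M genes alone in each of the 9 libraries, 1 point per library. Right, gamma M counts as a percentage of all crystallin counts of the library with 95% Wilson intervals. The beta sum was 595 CPM in the control and 84.1 to 186 CPM in the exposed libraries, and the gamma M share was 8.33% in the control and at most 5.11% elsewhere. Of the 11 gamma M genes, 7 passed the later filter on low values only with the control in it.

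Of the 26 members, 23 entered the test, and cryabb, crybb3 and crygn1 were too low. Another 9 passed the filter on low values only with the control in it. With the control, 1 library at the CPM of 10 counts in a library of median size was enough, and without it 2 were needed. Apart from crygm2d3 and crygm2d7, no exposed library of these genes reached that level, so that a lower value in exposed embryos was built into their passing. A P1 library did in crygm2d3, at 0.813 CPM, and in crygm2d7, at 0.728 CPM. The counts that follow therefore rest first on the 14 members that passed without the control, 8 beta and 6 gamma. All 8 beta genes and 5 of the 6 gamma genes among them fell in P1, in P2 and in P3 against the control. The background was 9.19% of all tested genes called lower in P1, 15.6% in P2 and 12.2% in P3. Over all 23 tested members 22 fell in each comparison, and 22 fell in P3 also without P3 replicate 0. None was higher, where 7.08%, 14.2% and 10.4% of all tested genes were in P1, P2 and P3, also at an unadjusted p under 0.05 and by DESeq2. The median log2 change of the 8 beta genes was -1.70, -2.70 and -2.42 in P1, P2 and P3, and that of the 6 gamma genes -1.79, -3.59 and -2.85. Over all tested genes the medians were -0.00120 in P1, 0.00420 in P2 and 0.0137 in P3. The 3 comparisons share the control library, so their shared direction is not 3 separate observations.

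The alpha crystallins gave few reads. The chaperone gene cryaa (ENSDARG00000053502, chromosome 1 from 28027491 to 28031533, build Zv9) held 11 counts in the control, 3, 4 and 5 in P1, 4 and 4 in P2, and 4, 3 and 3 in P3. Scaled to depth these were 0.918 CPM in the control and 0.147 to 0.331 CPM in the exposed libraries, which all lay below it. cryaa passed the filter through the control alone, so a lower value was built into its test and the values are given as a description. Its log2 change was -1.82 ± 0.574 (SE) in P1, -1.96 ± 0.616 in P2 and -2.21 ± 0.594 in P3. Its edgeR call in P1 was lost when any P1 or P2 library was left out. That call was also lost in a fit of P1 and the control alone and with no filter. The call in P2 was lost when either P2 library was left out. With replicate number as a block, the calls in P1 and in P2 were lost. All 3 calls were lost against a minimum change of 2-fold. The second alpha gene, cryabb, held 2 counts in the control and at most 2 in any exposed library, so no difference was detectable at this depth.

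Among acidic beta chains, cryba1b, a copy of the gene that makes the beta A1 chain, was at 70.1 CPM in the control, 20.4, 18.0 and 20.1 in P1, 10.0 and 9.23 in P2, and 7.98, 12.6 and 16.7 in P3. The related chain cryba1l was at 62.0 CPM in the control, 19.7, 16.8 and 19.9 in P1, 9.50 and 11.8 in P2, and 7.17, 10.1 and 13.3 in P3. For both genes P1 stood above P2 and P3 without overlap, P2 and P3 overlapped, and no exposed library came near the control. cryba1b fell 3.59-fold in P1, 7.28-fold in P2 and 5.56-fold in P3, and cryba1l fell 3.29-fold, 5.79-fold and 5.98-fold. The adjusted p of these 6 changes in edgeR's test ran from 1.08e-08 to 2.24e-06.

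The beta A2 chains are coded by a pair of gene copies. In control embryos cryba2a was at 50.6 CPM, with 14.98, 14.2 and 13.6 in P1, 5.66 and 6.35 in P2, and 6.17, 9.79 and 8.75 in P3. Its copy cryba2b was at 41.9 CPM in the control, 14.9, 14.5 and 15.8 in P1, 10.6 and 9.34 in P2, and 8.79, 9.02 and 10.2 in P3. In both genes the exposed libraries lay below the control, P1 stood highest among them, and P2 and P3 overlapped. In P2 cryba2a fell 8.40-fold and cryba2b 4.21-fold, with log2 changes of -3.07 (95% interval -3.41 to -2.73) and -2.07 (-2.33 to -1.82). The difference between the copies was not tested. cryba2b had the smallest beta change in all 3 comparisons among the 8 genes, at 2.78-fold in P1 and 4.46-fold in P3.

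The acidic chain cryba4 was at 55.5 CPM in the control, 19.6, 17.4 and 17.2 in P1, 9.80 and 8.79 in P2, and 8.72, 12.5 and 13.1 in P3. It fell 3.07-fold, 5.98-fold and 4.83-fold in P1, P2 and P3, with P1 above the overlapping P2 and P3 libraries. It lies on chromosome 10 from 45544674 to 45552554, 15142 bases from crybb1 (ENSDARG00000068507, 45523364 to 45529531), which runs in the opposite direction. crybb1 itself was at 122 CPM in the control, 41.1, 33.2 and 40.7 in P1, 17.5 and 19.1 in P2, and 19.1, 24.5 and 27.4 in P3. It fell 3.18-fold, 6.65-fold and 5.13-fold, and again P1 stood above P2 and P3, which overlapped. The crybb1 model overlaps a transcript of the other strand, si:ch211-122a17.5, over 3428 bases. The sources used here do not give the strand setting of the counting, so reads of this pair cannot be told apart. The overlapping row held 371 counts in all against 5164 for crybb1. Its log2 change against the control was -2.04 in P1, -2.87 in P2 and -2.60 in P3.

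Among the other basic chains, crybb1l2 was at 115 CPM in the control, 37.7, 33.9 and 35.5 in P1, 16.4 and 19.4 in P2, and 18.1, 26.1 and 26.1 in P3. It fell 3.21-fold, 6.39-fold and 4.88-fold, with P1 again above P2 and P3. The steepest fall of the 8 beta genes belonged to crybb1l1, which was at 76.7 CPM in the control, 17.2, 16.0 and 16.5 in P1, 6.64 and 5.81 in P2, and 7.35, 12.3 and 10.2 in P3. All P3 libraries of crybb1l1 lay above both of P2 and below all of P1. Its log2 change was -2.21 ± 0.135 (SE) in P1, -3.63 ± 0.163 in P2 and -2.94 ± 0.139 in P3, with adjusted p of 7.74e-09, 4.44e-11 and 2.01e-10 in edgeR's test. It was 4.63-fold lower in P1, 12.3-fold lower in P2 and 7.69-fold lower in P3. On chromosome 14 crybb1l1 and cryba1l lie head to head with 2847 bases between them, yet cryba1l was 5.79-fold lower in P2. A low beta gene, crybb1l3, held 13 counts in the control and 17, 2 and 5 counts summed over P1, P2 and P3. crybb3 held 6 counts in the control and 2 to 11 in each exposed library, with CPM of 0.501 in the control and 0.116 to 0.623 elsewhere, and was not tested.

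**Figure D2:**
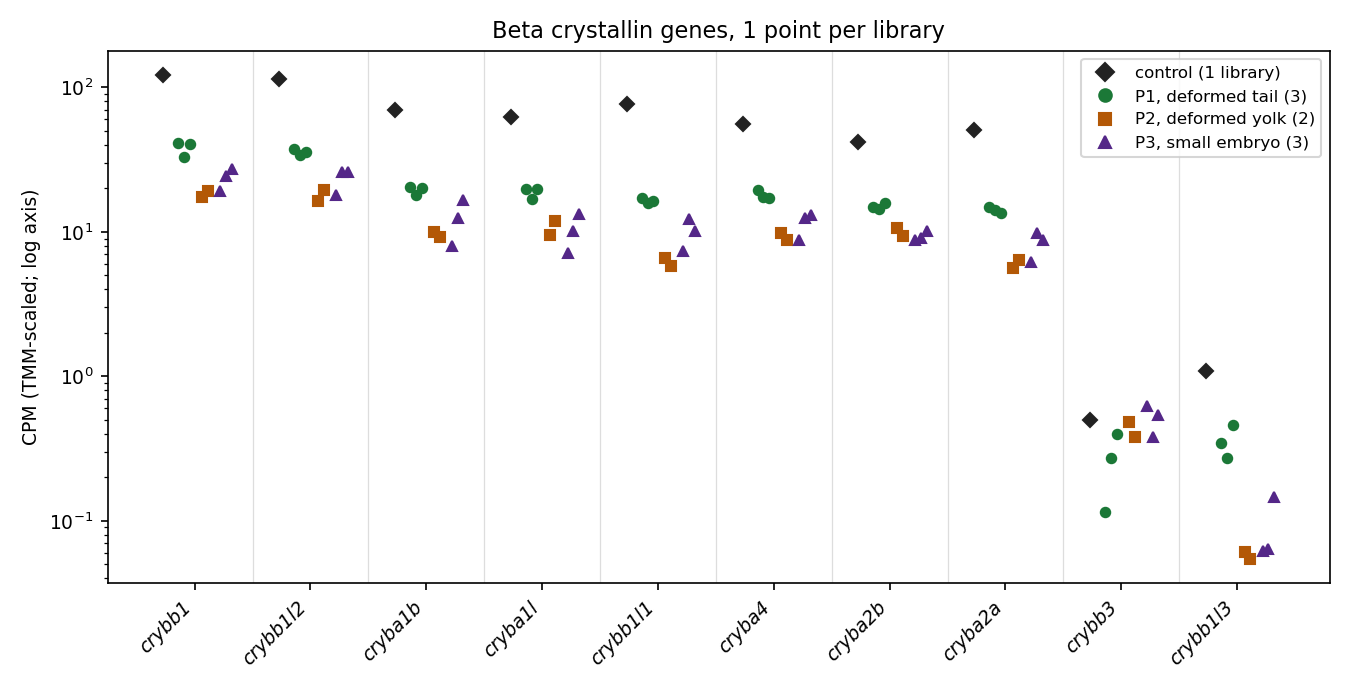
TMM-scaled CPM (log axis) of the 10 beta crystallin genes, ordered by mean level, with 1 point per library: the control, 3 P1, 2 P2 and 3 P3 libraries. For the 8 abundant genes the control point lies above all exposed points and the P1 points lie above those of P2 and P3. crybb1l3 and crybb3 are near or below 1 CPM, and crybb3 overlaps the control.

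The gamma family held both the steepest falls and the tested member that did not fall. The gamma N gene crygn2 was at 43.9 CPM in the control, 15.3, 11.8 and 15.8 in P1, 7.55 and 7.76 in P2, and 8.72, 11.9 and 13.2 in P3. It fell 3.05-fold in P1, 5.73-fold in P2 and 3.86-fold in P3, within the range of the beta genes in P1 and P2. The related crygn1 held 5 counts in the control and 0 to 5 in the exposed libraries and was too low to test.

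The gamma M genes are the dense methionine-rich class. crygm2d13 (ENSDARG00000057460, chromosome 9 from 23124506 to 23125670) was at 12.02 CPM in the control, 1.63, 1.29 and 1.46 in P1, 0.487 and 0.271 in P2, and 0.561, 0.762 and 1.08 in P3. Its groups were separate, with P2 lowest, P3 next and P1 highest among exposed embryos. P2 held 8 and 5 counts and P3 9, 12 and 22, and P3 differed from neither P1 nor P2 past the threshold. It was 8.17-fold lower in P1, 31.6-fold lower in P2 and 14.5-fold lower in P3, with log2 changes of -3.03 ± 0.239, -4.98 ± 0.323 and -3.86 ± 0.256 (SE) and adjusted p of 1.74e-07, 4.61e-09 and 9.43e-09 in edgeR's test. crygm2d8 was at 9.35 CPM in the control, 2.55, 2.17 and 2.38 in P1, 0.670 and 0.597 in P2, and 0.748, 1.33 and 1.47 in P3. This gene kept the same order of groups at smaller changes, 3.92-fold, 14.6-fold and 7.71-fold.

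On chromosome 12 the gamma M genes crygmxl2 and crygmx lie 1144 bases apart on the same strand. crygmxl2 was at 14.5 CPM in the control, 2.67, 2.44 and 1.65 in P1, 0.487 and 0.597 in P2, and 0.685, 1.33 and 1.47 in P3. Its neighbour crygmx was at 3.75 CPM in the control, 1.39, 1.35 and 1.06 in P1, 0.183 and 0.543 in P2, and 0.374, 0.445 and 0.786 in P3. In both genes every P1 library lay above every P2 and P3 library and below the control. The falls were 6.38-fold, 26.3-fold and 12.2-fold for crygmxl2, and 2.94-fold, 9.90-fold and 6.70-fold for crygmx. crygmx held 10 or more counts in all P1 libraries but in 1 library each of P2 and P3, so that its place in the test owed most to P1.

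The rarer gamma M genes passed the filter only with the control in it, and their values are given as a description. In crygm2d7 and crygm2d3 a P1 library was also enough by itself, so a high control or a high P1 was built into their passing. crygm2d7 held 53 counts in the control, 10, 7 and 11 in P1, 0 and 0 in P2, and 2, 3 and 6 in P3. Against a floor of 3 counts per library its level in P2 was at least 25.6-fold lower than in the control. crygm2d3 held 36 counts in the control, 14, 9 and 2 in P1, 0 and 0 in P2, and 2, 7 and 6 in P3, which made its P2 level at least 17.4-fold lower. Each of these genes was read in all P1 and P3 libraries and in neither P2 library. crygm2d4 and crygm2d14 were also at 0 counts in both P2 libraries, with 16 and 10 counts in the control and bounds of 7.73-fold and 4.83-fold. crygm2d1, crygm2d12 and crygm2d6 held 52, 32 and 25 counts in the control and at most 9 in any exposed library.

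Summed over the 11 gamma M genes the level was 58.3 CPM in the control, 9.53 ± 1.25 in P1 (SD, n = 3), 2.14 ± 0.273 in P2 (SD, n = 2) and 4.55 ± 1.54 in P3 (SD, n = 3), so that the group means were 6.12-fold, 27.2-fold and 12.8-fold below the control. The beta means were 3.37-fold, 6.72-fold and 5.45-fold below it. As a share of all crystallin counts of a library, gamma M took 8.33% in the control (95% Wilson interval 7.76% to 8.94%). It took 5.11%, 4.92% and 4.11% in P1, 1.99% and 2.27% in P2, and 2.88%, 3.79% and 3.88% in P3. The control interval lay above all exposed intervals, the highest of which ended at 5.87%, and the library values of the 4 groups did not overlap. These intervals cover counting error within a library. Of the 11 genes, 7 passed the filter on low values only with the control in it, so these sums and shares rest partly on genes with a high control value. The remaining gamma M genes, crygm2d13, crygmxl2, crygm2d8 and crygmx, were 31.6-fold, 26.3-fold, 14.6-fold and 9.90-fold lower in P2. They were 8.17-fold, 6.38-fold, 3.92-fold and 2.94-fold lower in P1, and 14.5-fold, 12.2-fold, 7.71-fold and 6.70-fold lower in P3. The 8 abundant beta genes fell 2.78-fold to 4.63-fold in P1, 4.21-fold to 12.3-fold in P2 and 4.46-fold to 7.69-fold in P3. Within these ranges lay crygmx in P1, P2 and P3, and crygm2d8 in P1.

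The tested member that did not fall was crygs2, a gamma S crystallin, the class that in mammals is made mainly in the outer lens. It was at 0.918 CPM in the control, 1.10, 1.22 and 1.26 in P1, 1.40 and 1.79 in P2, and 1.25, 1.02 and 1.47 in P3. All exposed libraries stood slightly above the control. The log2 differences were 0.37 (95% interval -0.55 to 1.30), 0.80 (-0.11 to 1.71) and 0.46 (-0.45 to 1.36) in P1, P2 and P3, none past the threshold, with adjusted p of 0.624, 0.176 and 0.49 in edgeR's test. crygs2 (ENSDARG00000041171, chromosome 9 from 28766892 to 28771668, minus strand) overlaps the methyltransferase gene lcmt2 on the plus strand over 745 bases. lcmt2 was at 4.26 CPM in the control, 5.98, 6.43 and 7.08 in P1, 4.87 and 6.51 in P2, and 5.48, 5.46 and 5.90 in P3. Without a stated strand setting the reads of these genes cannot be told apart, and with 11 counts in the control the depth limits this gene.

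**Figure D3:**
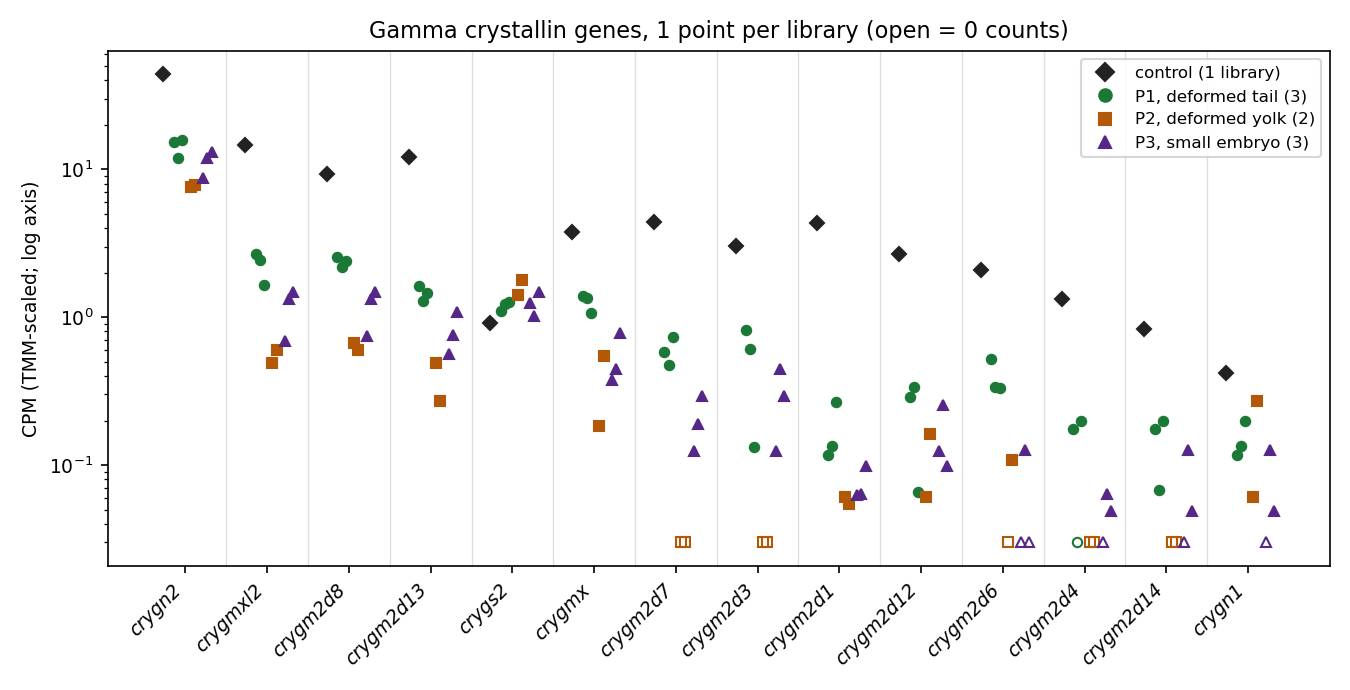
TMM-scaled CPM (log axis) of the 14 gamma crystallin genes, ordered by mean level, with 1 point per library and open symbols at the bottom for libraries with 0 counts. The control point is highest for every gene but crygs2, where it is the lowest point at 0.918 CPM. Open P2 symbols mark crygm2d7, crygm2d3, crygm2d4 and crygm2d14, which had 0 counts in both P2 libraries, and crygm2d6, which had 0 in P2 replicate 0 and 2 in P2 replicate 1.

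**Figure D4:**
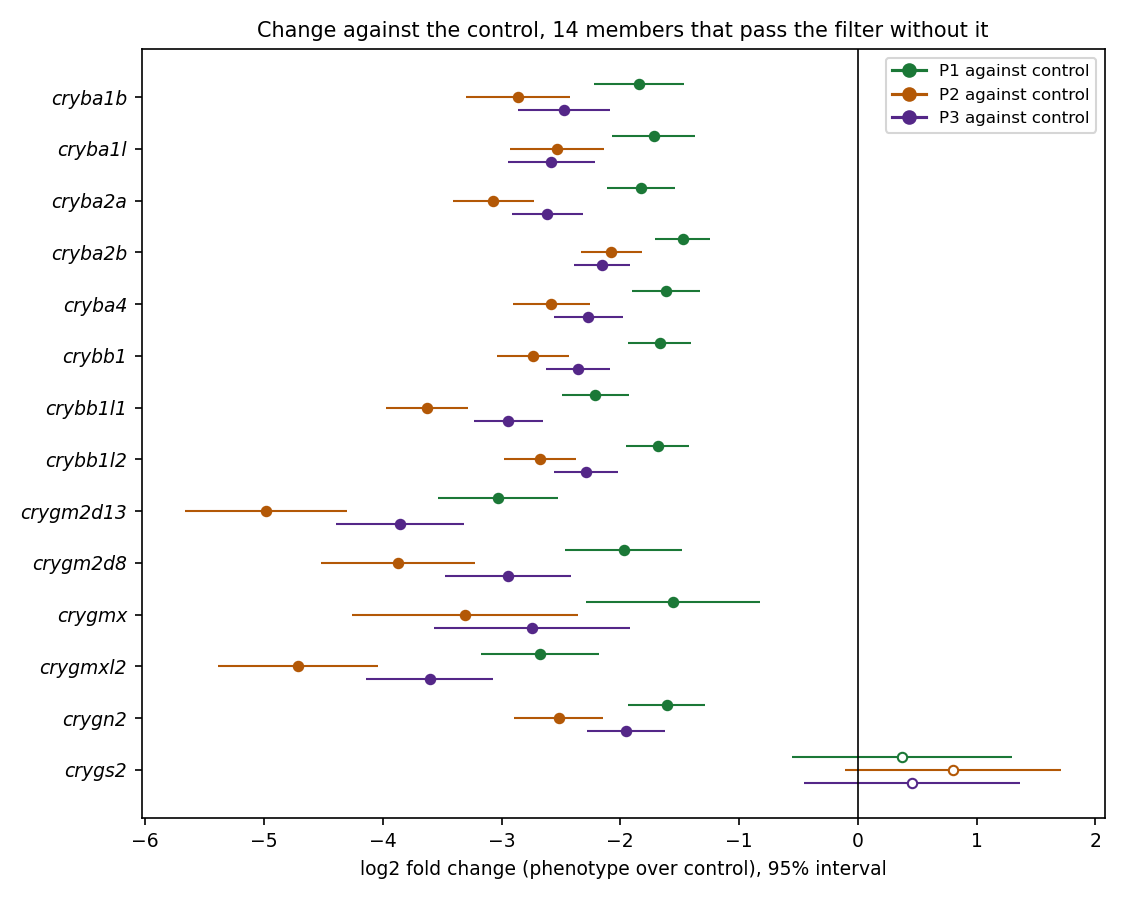
log2 fold change against the control of the 14 members that passed the filter without it, with 95% intervals from the edgeR fit. Filled points passed the threshold and open points did not. The 13 filled genes lie below 0 in all 3 comparisons, crygs2 lies above 0 with intervals that include it, and crygm2d13 in P2 is the lowest point at -4.98.

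Other genes of the lens were lower too, while most retinal genes did not pass the test. In a list of 25 genes of lens fibres and lens regulators, 20 were tested, and 10 were called lower in P1, 12 in P2 and 12 in P3, with median log2 changes of -0.94, -1.41 and -1.16. These and the following counts stand against 9.19%, 15.6% and 12.2% of all tested genes called lower in P1, P2 and P3. mipa, a water channel of the fibre membrane, was at 46.0 CPM in the control, 15.8, 13.7 and 13.8 in P1, 4.81 and 5.59 in P2, and 5.73, 9.21 and 9.78 in P3. Its copy mipb changed by -2.43, -4.73 and -3.41 on the log2 scale, the fibre gap junction gene cx44.1 by -1.06, -2.99 and -1.91, and the fibre membrane gene lim2.4 by -1.71, -2.83 and -2.31. These changes passed the threshold in all 3 comparisons. The regulators in the list differed. The transcription factor gene maf changed by -0.54, -1.42 and -0.66 on the log2 scale in P1, P2 and P3, past the threshold each time. The lens regulators pitx3 and foxe3 had log2 changes of -0.20 and 0.04 in P1, -0.26 and -0.26 in P2, and -0.16 and 0.01 in P3, none past the threshold. The gene called higher in P2 and in P3 was mafba, a transcription factor of the Maf family, with 0.74 and 0.45. These 4 regulators were named after their values were seen.

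In a list of 13 retinal genes, 11 were tested, of which 1, 4 and 4 were lower in P1, P2 and P3, with medians of -0.10, -0.19 and -0.15, so that the P1 share was near that of all tested genes. The P2 and P3 shares stood above the 15.6% and 12.2% of all tested genes, and no retinal gene was called higher. The summed level of the retinal list was 300.4 CPM in the control, 252 to 282 in P1, 252 in both P2 libraries and 241 to 260 in P3. Genes of other tissues moved as well. Of 9 pigment cell genes, 6, 7 and 6 were lower in P1, P2 and P3, and their sum was 610.5 CPM in the control, 286 to 324 in P1, 160.3 to 161 in P2 and 225 to 295 in P3. Of 12 skeletal muscle genes, 10, 12 and 11 were lower, and their sum was 23986 CPM in the control, 17099 to 18362 in P1, 12121 to 12307 in P2 and 12074 to 16375 in P3. Of 9 tested genes for other small heat shock proteins, the family to which alpha crystallins belong, 1, 6 and 4 were lower in P1, P2 and P3. The gene called in P1 was hspb2, and hspb2 and hspb3 were both among the calls in P2 and P3. They were at 2.00 and 1.08 CPM in the control and at most 0.464 in any exposed library, so the control carried them past the filter. Both were named after their values were seen. The list genes were not split by whether they passed without the control. The part of these list changes in the crystallin results was not tested.

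The exposed groups were then compared with each other, so that the level of the control does not enter the difference. The control library stayed in the fit, its filter and its scaling, and 9 of the 23 tested members passed only with it. Of these, crygm2d3 and crygm2d7 each had a P1 library that was enough by itself, so a high P1 may have counted in their passing. Among the 14 members that passed the filter on exposed libraries alone, P1 was the highest group for 13 and P2 the lowest for 11. A joint edgeR test among P1, P2 and P3 called all 8 beta genes and 5 of the 6 gamma genes, where 28.8% of all tested genes were called. The gene that was not called was crygs2, with an adjusted p of 0.405. P1 was higher than P2 in 13 of the 14 members, and in 17 of all 23 tested, against a background of 10.6% of tested genes called higher. None was lower, where 9.91% of tested genes were, also at an unadjusted p under 0.05 and by DESeq2. In all 13 every P1 library lay above both P2 libraries, as in 26.2% of all tested genes. crygmx is among the 13, although its place in the test owed most to P1, so that a higher P1 was partly built into its call. The same limit holds for crygmx in the joint test and in P3 against P1.

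The P1 over P2 difference was smallest for cryba2b at 1.52-fold and largest among the 8 beta genes for crybb1l1 at 2.67-fold, with log2 differences of 0.60 ± 0.105 and 1.42 ± 0.154 (SE). The median log2 difference was 1.01 over the 8 beta genes and 1.83 over the 6 gamma genes. Among gamma genes crygn2 was 1.87-fold higher in P1, crygm2d8 3.73-fold, crygm2d13 3.86-fold and crygmxl2 4.12-fold. The 95% interval of the log2 difference was 0.58 to 1.24 for crygn2 and 1.29 to 2.79 for crygmxl2. Against a minimum change of 2-fold instead of 0, 1 member was called, crygm2d7, which had 0 counts in both P2 libraries. Without P2 replicate 0 the calls of cryba1l and crygmx were lost.

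P3 was lower than P1 in 11 of the 14 members, all 8 beta genes and 3 gamma genes, and in 12 of all 23 tested, against a background of 4.42%. No member was higher in P3, where 6.01% of tested genes were, also at an unadjusted p under 0.05 and by DESeq2. The beta differences ran from 1.52-fold for crybb1l2 to 1.82-fold for cryba1l, and no P3 library of any of these 8 genes reached a P1 library, a separation found in 13.2% of all tested genes. The adjusted p of crybb1 was 0.000317 in edgeR's test and that of cryba2b was 0.000123. crygm2d8, crygmxl2 and crygmx were 1.97-fold, 1.91-fold and 2.28-fold lower in P3. All 3 gamma calls and that of cryba1b were lost without P1 replicate 0, and those of crygmxl2, crygmx and cryba1b also with DESeq2. The call of cryba1b was lost without P1 replicate 2 as well. That of crygmxl2 was lost without P1 replicate 1, without P3 replicate 0 and in a fit of P1 and P3 alone. That of crygmx was lost when any P1 library or P3 replicate 0 or 1 was left out. With replicate number as a block, the calls of crygmx and crygmxl2 were lost. The difference of crygm2d13 was -0.83 on the log2 scale (95% interval -1.42 to -0.23) with an adjusted p of 0.0732 in edgeR's test, and that of crygn2 was -0.34 (-0.61 to -0.06) with 0.112. Over all tested members the count was 7 without P1 replicate 0 and 10 without P3 replicate 0, and against a minimum change of 2-fold it was 0, with 2 lower at an unadjusted p under 0.05.

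P3 was higher than P2 in 5 of the 14 members, namely crybb1l1, crybb1l2, crybb1, cryba2a and crygn2, and in 7 of all 23 tested, against a background of 11%. None was lower in P3, where 10.5% of tested genes were, also at an unadjusted p under 0.05 and by DESeq2. The difference was 1.61-fold for crybb1l1 and 1.48-fold for crygn2, whose P3 libraries all lay above both P2 libraries. It was 1.30-fold to 1.37-fold for crybb1, crybb1l2 and cryba2a, whose P3 and P2 libraries overlapped. For cryba1l and cryba2b the log2 differences were -0.05 (95% interval -0.42 to 0.32) and -0.08 (-0.31 to 0.15). The gamma M genes crygm2d13, crygmxl2 and crygm2d8 were 2.18-fold, 2.16-fold and 1.90-fold higher in P3 without overlap, with adjusted p of 0.0683, 0.0554 and 0.0658 in edgeR's test. Such a separation, with every P3 library above both P2 libraries, was found in 24.8% of all tested genes. The count of 7 rested on single libraries. It was 0 without P2 replicate 1, with 8 at an unadjusted p under 0.05, 1 without P2 replicate 0, 1 without P3 replicate 2, 3 without P3 replicate 1 and 12 without P3 replicate 0. P3 replicate 0 was the lowest P3 library for all 8 beta genes and for 5 of the 6 gamma genes, and it was also the lowest P3 library for the muscle list.

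**Figure D5:**
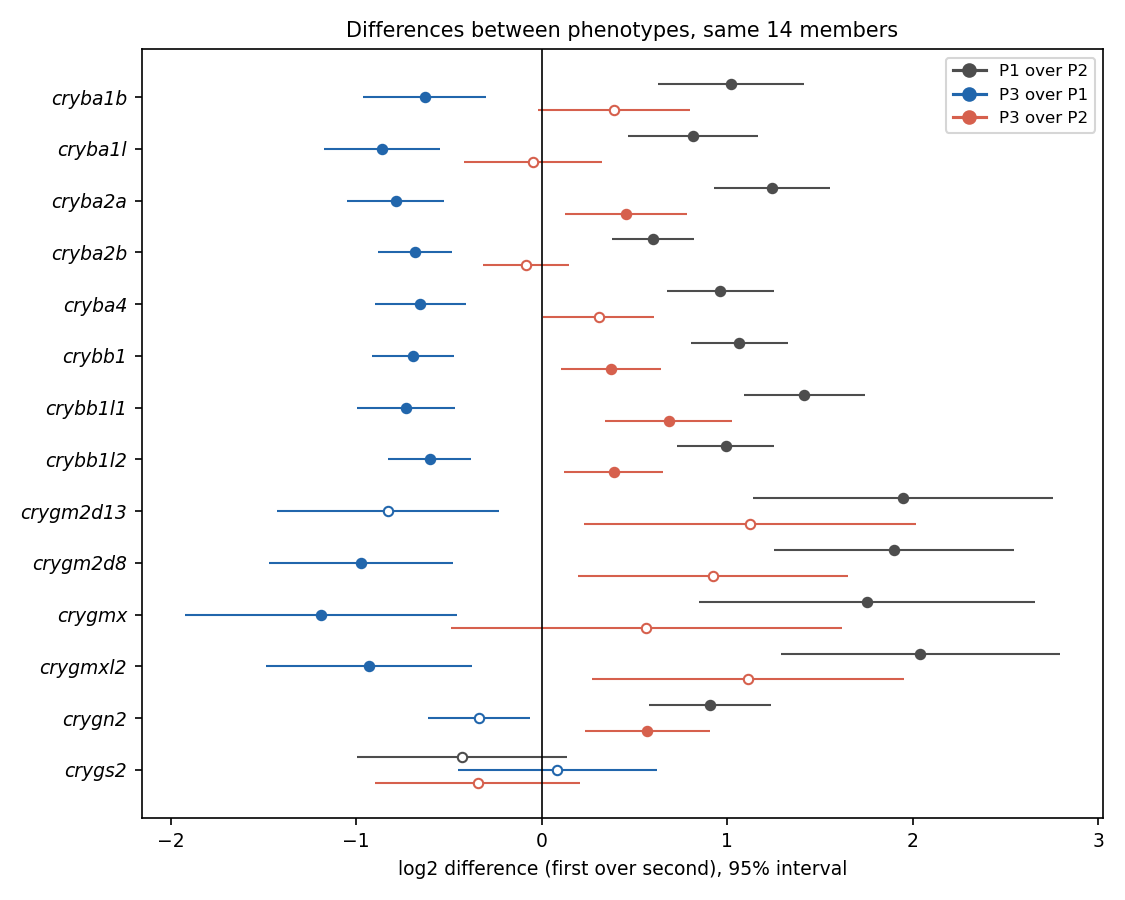
log2 differences between exposed groups for the same 14 members, with 95% intervals from the edgeR fit. Filled points passed the threshold and open points did not. P1 over P2 is filled on the right for 13 genes, P3 over P1 is filled on the left for 11, and P3 over P2 is filled on the right for 5.

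The crygm2d genes, 9 of the 11 gamma M members, share a place in the genome. On chromosome 9 of Zv9, 26 rows with a crystallin symbol lay within 373151 bases, from 23026437 to 23399587. Another 11 rows under other names lay among them. One of those is CRYGB, a gamma crystallin symbol in capitals. Clone names were matched to crystallin genes over all rows, but it was not looked up which matches lie among these 11. Of the 26 rows, 13 were crygm2d genes, and 9 of the 13 were members, all on the minus strand between 23124506 and 23372927. The other 13 rows, among them crygm1, crygm3, crygm5, crygm7 and crygs4, held at most 9 counts each over all libraries. The copies of such a tandem array are alike in sequence, so the division of reads among single crygm2d genes is uncertain, while a sum over copies is less so. The sum given here leaves out the rows under clone names that were matched to crygm2d genes, the largest with 92 counts in the control. How reads shared by copies were counted is not stated in the sources used here. The sum over the 9 crygm2d members was 40.1 CPM in the control, 6.01 ± 0.749 in P1 (SD, n = 3), 1.24 ± 0.0595 in P2 (SD, n = 2) and 2.85 ± 0.958 in P3 (SD, n = 3). Of these 9 genes, 7 passed the filter on low values only with the control in it. Apart from crygm2d3 and crygm2d7, a lower value in exposed embryos was built into their passing.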

How the data were processed

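Whole-embryo poly(A) libraries (TruSeq RNA v2, RNeasy Mini) were aligned to Zv9 with Novoalign, per the submitters' processing notes. For the annotation release, counting tool and strand setting, nothing is given in the sources used here. Per the file headers, the authors deposited raw counts per gene and library, FPKM, a log2 ratio corrected for variance and a score, which by its values is -10 times the log10 of a p or adjusted p. The deposited FPKM equals the count scaled by gene model length and by the library's total of gene counts. Another 11 columns of values per sample were not used. Control counts were the same in all 3 tables, so 9 libraries were joined.

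Genes were kept by filterByExpr (minimum count 10, minimum total 15), scaled with TMM factors and fitted with group as the only term in edgeR 4.0.16 (R 4.3.3, limma 3.58.1) by two-sided quasi-likelihood F tests, with 5 residual degrees of freedom and Benjamini-Hochberg adjustment over 19835 genes. The standard error is the log2 change divided by the square root of F. The procedure was run on simulated data with the same dispersion for every gene and changes only in genes averaging at least 10 counts. That setting does not cover the rarer members or the uneven spread of these libraries. Bounds for groups with 0 counts use a floor of 3 counts per library, and shares carry 95% Wilson intervals. Alternatives were DESeq2 1.42.0, RLE factors, library totals alone, other filters, a minimum change of 2-fold, the 2 groups alone, replicate number as a block and each exposed library left out.

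All alpha genes, the 8 most abundant beta and gamma genes each, and the extremes of change above 1 CPM are given by library. From each of the 5 lists of other genes, which held 72 entries with 3 unmatched, at most 4 genes with the smallest p were to be named. The members and lists were chosen with earlier results of these data known.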

Additional observations from a re-analysis of the deposited data

How the results depend on the processing

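Calls of members against the control moved with the filter on low genes, which changes how many members are tested. The count of 22 in P1 became 12 with DESeq2, which gave no adjusted p for 13 members, 13 with a filter of 1 CPM in 2 libraries, and 13 with the filter applied to the exposed libraries alone, an alternative chosen after seeing the data. In P2 and in P3 the count was 13 with each of these filters. P1 above P2 gave 1 against a minimum change of 2-fold, and P3 below P1 gave 0 (2 at an unadjusted p under 0.05). P3 above P2 gave 4 with DESeq2, 0 against a minimum change of 2-fold (2 at an unadjusted p under 0.05), and 3 in a fit of P2 and P3 alone. With single libraries left out, the counts ranged from 19 to 22 in P1, 21 to 22 in P2 and 22 to 22 in P3 against the control, 12 to 18 for P1 above P2, 7 to 13 for P3 below P1, 0 to 12 for P3 above P2 and 15 to 17 for the joint test. The counts against the control include the 9 members that passed the filter only with the control in it. Apart from crygm2d3 and crygm2d7, their lower value was built in. The calls lost against the control in these runs were those of cryaa, crybb1l3 and crygm2d14, which are among the 9.

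With replicate number as a block, P3 above P2 gave 3, P1 above P2 gave 15 and P3 below P1 gave 10. The numbers mark no stated clutch or day. Deviations from the group mean correlated at -0.16 to 0.02 for same-numbered libraries and at -0.05 to 0.17 for libraries with different numbers. In groups of 2 or 3 libraries the deviations depend on each other, so these correlations cannot decide whether the numbers pair libraries. RLE factors and library totals moved family sums by less than 1 SD.

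For single genes 1549 values kept direction and call, 107 lost the call, 14 gained it and 5 changed sign. The sign changes came with 1 library left out: cryaa P1 over P2 (-0.066 without P1 replicate 2, 0.38 without P1 replicate 0), crygs2 P3 over P1 (-0.070 without P3 replicate 2, 0.20 without P3 replicate 1), cryba1l P3 over P2 (0.12 without P2 replicate 1, 0.15 without P3 replicate 0, -0.31 without P3 replicate 2) and cryba2b P3 over P2 (0.00638 without P2 replicate 0, -0.17 without P2 replicate 1). None of these passed the threshold. Genes under about 10 counts per library, the alpha and rarer gamma genes, are limited by depth. The causes of these changes were not tested.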

Other observations

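Rows under clone names hold further crystallin genes that the symbol rule does not reach. RefSeq synonyms matched 8 such rows to crystallin symbols, 1 beta and 7 gamma M. zgc:101859, matched to cryba1l2, was at 9.43 CPM in the control, 4.35, 4.06 and 3.91 in P1, 1.03 and 1.03 in P2, and 2.12, 2.80 and 2.85 in P3. Its groups did not overlap, and its log2 change was -1.19, -3.18 and -1.85 in P1, P2 and P3, with adjusted p of 0.000447, 5.94e-08 and 3.55e-06 in edgeR's test. si:ch211-212n6.17, matched to crygm2d10, held 92 counts in the control, 20, 14 and 14 in P1, 1 and 2 in P2, and 3, 10 and 11 in P3. Of the 8 rows 6 were tested and all 6 were lower in each comparison with the control. In 4 of the 6 the control held 21 to 30 counts and no exposed library more than 11. Apart from zgc:162402, the control carried them past the filter on low values. zgc:162402 held 11 counts in P1 replicate 2, which was enough by itself. The remaining 2 rows, matched to crygm2d16 and crygm2d2, held 3 and 12 counts over all libraries.

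Of the 26 members, 18 had in the authors' deposited table an adjusted p under 0.05 and a ratio below 0 in each of P1, P2 and P3, 8 beta and 10 gamma genes. The alpha genes, crybb1l3, crybb3, crygn1, crygm2d4, crygm2d14 and crygs2 were not among them. The variance-corrected log2 ratio of crybb1 in the authors' deposited table was -1.21 in P1, -1.15 in P2 and -1.84 in P3. From the counts the log2 change of crybb1 was -1.67, -2.73 and -2.36, so the deposited ratios put the largest fall in P3 and the counts put it in P2, and the order of P1 and P2 differs too. The deposited ratios of crygm2d13 in the authors' deposited table were -0.75, -0.54 and -1.14, against -3.03, -4.98 and -3.86 from the counts, with the same differences in order. The sources used here do not give how the correction was made.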
